A study of Artemia franciscana with 14 samples.

Results

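The genes described here lie on the Z chromosome of the brine shrimp *Artemia franciscana* by their numbering, on either side of a block bounded by 2 anchor genes of the differentiated region, jg9743 and jg9949. Members were taken by identifier alone: the numbers from jg9624 to jg9742 (the lower flank, leaving out jg9702) and from jg9950 to jg9983 (the upper flank). Of the 152 numbers in these ranges, 139 occur among the 19421 genes of the counts table, 108 in the lower and 31 in the upper flank, and 13 numbers have no row. In the table both flanks are runs of neighbouring rows, with 3 other identifiers inside the lower run and 1 inside the upper run, and 176 rows numbered between the anchors separate them. The table carries no coordinates and no gene symbols, so the place of each member relative to the limits of the differentiated region was not determined, and no member could be given a name or a function.

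Females of *A. franciscana* are ZW and males are ZZ. The Z has a pseudoautosomal region (PAR), which still recombines with the W, and a differentiated region, Z(diff), for which females hold a single copy. Dosage compensation is the process that levels the output of such genes between the sexes, and in *Drosophila* it works through acetylation of histone H4 along the single X of males. Whether the change of a Z gene between embryonic stages is its own or shared with its neighbours can be asked gene by gene.

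RNA of single wild-type embryos was sequenced at 1–2 days post-fertilization (dpf), the blastula, and at 4 dpf, after gastrulation, with 3 female and 3 male embryos at each stage. Female replicate 3 and male replicate 1 of the early stage were taken at 1 dpf and the other 4 at 2 dpf. One whole-body sample of each sex, with the germline removed, represents the adults without replicates. The sex of the embryos is the one the study assigned from expressed single-nucleotide polymorphisms in Z(diff), and the number of mothers behind the embryos is not given in the sources used here, so p-values measure the spread between these embryos. Embryo libraries hold between 2669131 and 7463397 counts with 6414 to 11352 genes read, and the adult libraries hold 3342959 (female) and 1840926 (male). Female replicate 12 at 1–2 dpf stands apart with 6414 genes and 56 members read, where the other embryos have at least 9481 genes and 77 to 90 members. In bulk libraries of whole embryos, fewer cells of a type and less RNA per cell cannot be told apart.

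Reads were found for only part of the flanks. In the 12 embryos 31 of the 139 members had no read (25 in the lower and 6 in the upper flank), 7 never had more than 3 reads in an embryo, taken here as the floor, and 101 had more than 3 in at least 1 embryo. A floor of 3 reads equals between 0.422 and 1.02 CPM (counts per 1000000, scaled by TMM over the embryos). There were 52 members with a read in every embryo, 75 with a mean count of 10 or more and 35 with a mean count of 100 or more. The members together took 1.29% to 2.02% of the counts of an embryo.

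Most of these reads came from a few genes, and since the table holds no gene lengths, such shares are of reads and not levels per length. jg9664 alone took 21.7% to 54.5% of the member reads of an embryo, with a median of 43.0%, jg9733 took 15.7% to 25.6% and jg9696 took 5.23% to 13.2%. jg9664 was measured at 7315, 9581 and 7820.2 CPM in females at 1–2 dpf (replicates 3, 9 and 12) and at 9109, 8404 and 12040.3 CPM in males (replicates 1, 2 and 3). At 4 dpf it stood at 2651, 5814 and 5096 CPM in females (replicates 7, 10 and 11) and at 7433, 6521 and 6406 CPM in males (replicates 2, 5 and 8). Within each sex all 4 dpf embryos were below all earlier ones, and over both sexes the stages overlapped in 1 pair, male replicate 2 at 4 dpf and female replicate 3 at 1 dpf. The log2 fold change (log2FC) of 4 dpf over 1–2 dpf was −0.68 ± 0.24 (SE), which did not pass the threshold (edgeR quasi-likelihood F test, adjusted p = 0.102). jg9733 stood at 3800.1 ± 645 CPM (SD, n = 6) at 1–2 dpf and had a log2FC of −0.29 ± 0.19 (SE) (edgeR, adjusted p = 0.444). jg9696 stood at 1255 ± 350 CPM (SD, n = 6) at 1–2 dpf and had a log2FC of 0.58 ± 0.24 (SE) (edgeR, adjusted p = 0.17). None of these 3 genes was thus called between the stages.

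To follow the members as a group, a level was computed for each embryo as the mean log2 CPM of the 75 members with a mean count of 10 or more, minus that of 8075 autosomal genes chosen by the same count. At 1–2 dpf the level was −0.034, −0.036 and 0.222 in females (replicates 3, 9 and 12) and 0.149, 0.159 and 0.159 in males (replicates 1, 2 and 3). At 4 dpf it was 0.335, 0.619 and 0.859 in females (replicates 7, 10 and 11) and 0.493, 0.469 and 0.504 in males (replicates 2, 5 and 8). Every 4 dpf embryo was above every earlier embryo in this mean, the sexes overlapped at both stages, and females spread far more than males. At 1–2 dpf the overlap and the female spread came from female replicate 12 alone, the library with few genes. Female replicates 3 and 9 were below all early males. The mean of the level over the 6 early embryos was 0.103 ± 0.110 (SD), and over the 6 late embryos 0.546 ± 0.178 (SD), a difference of 0.443. In females the difference was 0.554 and in males 0.333. Taking the median member and the median autosomal gene instead, the stages overlapped and the difference was 0.245, and with a mean count of 100 or more (35 members) it was 0.849. On the same scale, 99 genes between the anchors differed by −0.050 and 178 genes of the PAR range by 0.010. No test is given for this level, because members were chosen with earlier results of these data known.

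**Figure D1:**
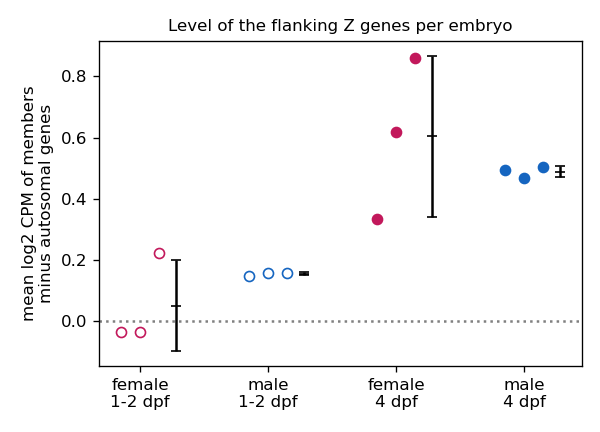
Level of the flanking Z genes in each embryo, as mean log2 CPM of 75 members minus that of autosomal genes (vertical axis), by sex and stage (open points 1–2 dpf, filled points 4 dpf, bars mean ± SD of 3 embryos). The 6 embryos at 4 dpf sit between 0.335 and 0.859, above the −0.036 to 0.222 of the earlier embryos, a separation that does not hold with the median over genes.

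The members contributed unequally to the stage difference in this level. Taking for each member its change in mean log2 CPM between the stages minus the autosomal mean change of 0.307, jg9667 carried 18.8% of the net difference, jg9728 16.8%, jg9685 14.3% and jg9700 13.5%. With jg9640 at 7.5%, the first 5 genes held 71.0%, and with jg9655 (7.33%), jg9657 (6.53%), jg9730 (5.91%), jg9979 (4.76%) and jg9630 (4.58%) the first 10 held 100.1%. The changes of the other members thus summed to about 0, with positive and negative values that cancelled. The order follows the outcome itself, so these shares describe the difference and test nothing. jg9667 had no read at the early stage and jg9728 had almost none. Their early log2 values were thus set largely by the prior count, the small number of reads added before taking logarithms. The sizes of their shares, their ranks and the summed shares that include them depend on that setting. Shares with another prior count are not given here. The autosomal mean was 2.82 log2 CPM in early female replicate 12, the library with few genes, and 3.99 to 4.16 in the other early embryos, and without that library the autosomal change was 0.093. With the same genes and scaling the first 5 genes then held 67.9% and the first 10 held 94.4%. Without the first 5 genes the difference was 0.138, and without the first 10 it was −0.00047, where leaving out the highest genes by itself lowers the mean. When 10 genes were dropped at each end, the other 55 still differed by 0.231, against −0.064 for autosomal genes trimmed in the same proportion.

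The changes of single members were uneven in size. Of the 75 members, 4 changed by more than 4 on the log2 scale relative to autosomal genes, 15 by 1 to 4, 47 stayed within 1 in either direction and 9 were below −1. In all, 46 members (61.3%) had a positive value and 29 a negative one, where 45.4% of autosomal genes were positive. The median was 0.236 in the members and −0.127 in autosomal genes. The share of genes above 4 was 5.33% of the members and 1.21% of autosomal genes. jg9667 and jg9728 are among the members above 4, and the size of their change depends on the prior count.

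**Figure D2:**
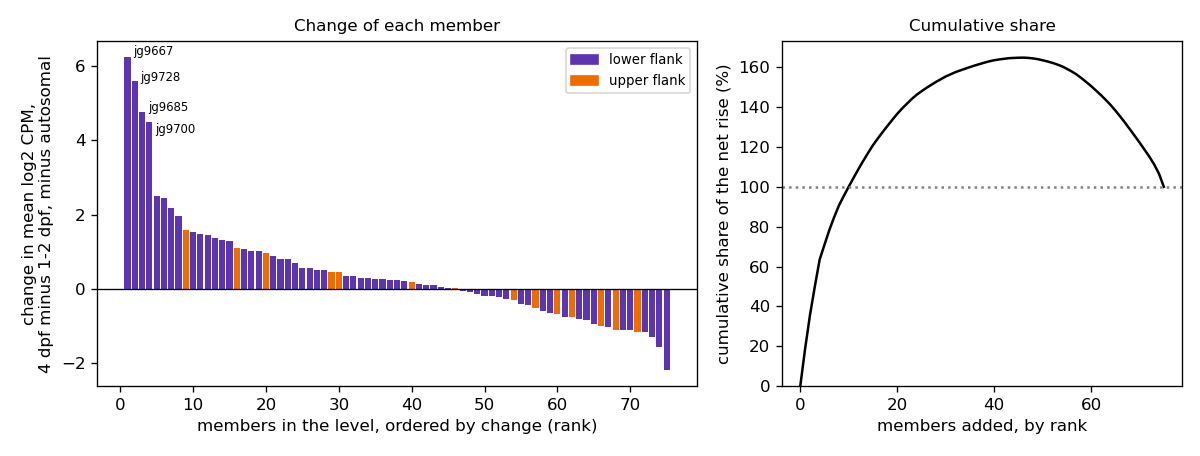
Left, change in mean log2 CPM from 1–2 to 4 dpf relative to autosomal genes for each of the 75 members (bars, ordered by size, coloured by flank), and right, the cumulative share of the net difference as members are added in that order. The line passes 100% at the tenth gene, climbs while the other positive members are added and returns to 100% over the 29 negative ones.

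In the gene-wise comparison of the 6 embryos at 4 dpf with the 6 at 1–2 dpf, 5 members rose and 0 fell among the 73 that passed the filter on low counts (edgeR, adjusted p under 0.05). This is 6.85% of the tested members, beside 4.46% of all 8362 tested genes called higher and 3.54% called lower. At an unadjusted p under 0.05, edgeR gave 12 members higher and 5 lower, beside 10.5% and 10.6% of all genes. DESeq2 called 9 members higher and 0 lower, beside 8.06% and 5.57% of all genes. The genes that rose by edgeR were jg9700, jg9685, jg9667, jg9728 and jg9662, all in the lower flank. Of these, jg9662 ranked only 15 by its share of the net difference in level (3.86%), behind several uncalled genes. Beside these 5, DESeq2 called jg9630, jg9684, jg9979 and jg9660, the last with a log2FC of 1.19 (DESeq2, adjusted p = 0.0416). The median log2FC was 0.44 in the members and 0.045 in all tested genes. Among the members 52 were positive and 21 negative, beside 4356 positive and 4006 negative among all 8362 tested genes. Placing jg9667 at its lower bound, explained below, leaves the median at 0.44. Groups did not overlap for 6 members that were higher at 4 dpf (8.22%, beside 5.13% of all tested genes) and for 0 that were lower (beside 2.7%).

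jg9700 was measured at 26.4, 3.85 and 9.78 CPM in females at 1–2 dpf (replicates 3, 9 and 12) and at 32.6, 16.2 and 21.6 CPM in males (replicates 1, 2 and 3). At 4 dpf it stood at 415, 417 and 595 CPM in females (replicates 7, 10 and 11) and at 413, 388 and 404 CPM in males (replicates 2, 5 and 8). The lowest late embryo lay more than 10 times above the highest early one, and only female replicate 11 departed from the other late embryos. The log2FC was 4.57 ± 0.43 (SE) (edgeR, adjusted p = 1.06e-05).

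jg9685 took the largest late share of reads among the genes that rose. Its early values were 116, 30.2 and 12.5 CPM in females and 69.7, 55.6 and 64.5 CPM in males, in the same order of replicates. Late embryos reached 1184, 1648 and 1966 CPM in females and 1928, 1954 and 1206 CPM in males. Early females spread widely around the narrow range of early males, and the late embryos of both sexes shared 1 range. The log2FC was 4.83 ± 0.45 (SE) (edgeR, adjusted p = 1.06e-05). Across the 12 embryos the log2 levels of jg9685 and jg9700 had a Pearson correlation of 0.98, and of 0.69 after the stage means were removed, given as a description over points that share libraries and stages.

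jg9667 had no read in any of the 6 early embryos. At 4 dpf the counts were 673, 80 and 337 reads in females (135, 13.5 and 72.5 CPM) and 33, 552 and 186 reads in males (4.64, 95.4 and 63.4 CPM). All late embryos were above the floor, with the lowest value in male replicate 2 and the highest in female replicate 7. The late mean of 64.1 CPM was at least 77.8-fold higher than the highest floor of an early library, 0.824 CPM for 3 reads, and the change was called (edgeR, adjusted p = 0.000701).

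jg9728 had a similar course. Its only early reads were 6 reads in female replicate 9 (1.65 CPM), and the other 5 early embryos had none. Its late values were 65.0, 18.4 and 34.4 CPM in females and at 7.45, 117 and 33.7 CPM in males. The late embryos all lay above the single early embryo with reads, and male replicate 2 was again the lowest. The log2FC was 7.35 ± 1.15 (SE) (edgeR, adjusted p = 0.000919). Without female replicate 9 no early read was left, and the late mean of 46.0 CPM was at least 58.1-fold higher than the highest floor of the other early libraries, 0.791 CPM for 3 reads. The log2 levels of jg9667 and jg9728 had a Pearson correlation of 0.98 over the 12 embryos and of 0.88 after stage means were removed, again as a description. Since jg9667 had no early read, the shared variation behind 0.88 comes from the 6 late embryos. Over the 12 embryos every pair of the 5 genes that rose was at 0.72 or above. The pairs printed were the highest after stage means were removed, and the others then ran from −0.24 (jg9700 with jg9728) to 0.54 (jg9662 with jg9685).

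jg9662 rose from a level that was already high. It was measured at 314, 355 and 205 CPM in early females and at 640.5, 547 and 903 CPM in early males. Late embryos stood at 1075, 1311 and 1173 CPM in females and at 1499, 1417 and 1534 CPM in males. The 3 females were below the 3 males at each stage, and the stages did not overlap. The log2FC was 1.43 ± 0.31 (SE) (edgeR, adjusted p = 0.00807). Another gene without overlap, jg9684, stood between 50.7 and 197 CPM early and between 207 and 314 CPM late, with a log2FC of 0.94 ± 0.32 (SE) that was not called by edgeR (adjusted p = 0.0956) and was called by DESeq2 (adjusted p = 0.0367).

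**Figure D3:**
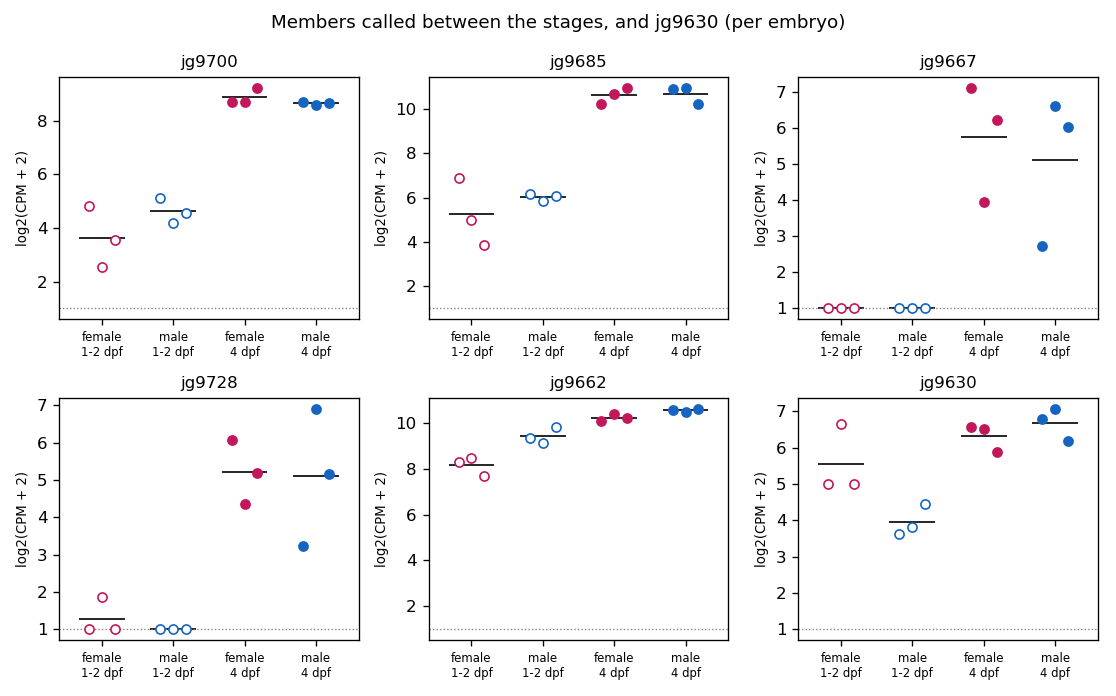
log2(CPM + 2) of the 5 members called between the stages and of jg9630, by sex and stage (points, 3 embryos per group; open points 1–2 dpf, filled points 4 dpf; lines, group means; dotted line, no read). jg9667 has no read in any early embryo, and jg9662 is lower in the 3 females than in the 3 males at each stage.

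Several of the other genes that carried the level did not pass the test in the 12 embryos. jg9640 had 0, 9 and 0 reads in early females and 0, 28 and 8 in early males, against 10 to 114 reads at 4 dpf, so the stages overlapped. Its log2FC was 2.62 ± 1.17 (SE) (edgeR, adjusted p = 0.212). Over embryos left out it lay between 2.33 (without late male replicate 8) and 3.72 (without early male replicate 2). jg9655 was at 0 reads in female replicate 12 and male replicate 1 of the early stage, at 14.1 to 36 CPM in the other 4, and at 5.41 to 92.3 CPM at 4 dpf. jg9657 was at 0 in 3 early embryos and reached 10.4 CPM in female replicate 9, while late embryos spanned 4.74 to 14.3 CPM. Both overlapped between the stages, with log2FC of 1.73 ± 0.99 (SE) for jg9655 and 1.59 ± 1.13 (SE) for jg9657 (edgeR, adjusted p = 0.347 and 0.472). Over embryos left out the value of jg9657 lay between 1.33 (without early male replicate 3) and 2.86 (without early female replicate 9).

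jg9979 was the one upper flank gene among the first 10. It stood at 1.72 to 9.33 CPM early and at 8.58 to 29.6 CPM late, with overlap through male replicate 1 at 1 dpf. Its log2FC was 1.86 ± 0.60 (SE), not called by edgeR (adjusted p = 0.0763) and called by DESeq2 (adjusted p = 0.0098). jg9630 stood at 30.3, 99.2 and 29.8 CPM in early females, at 10.3, 12 and 19.8 CPM in early males and at 57.5 to 132 CPM at 4 dpf. Female replicate 9 reached the late range and the other 5 early embryos did not. The log2FC was 1.45 ± 0.49 (SE) (edgeR, adjusted p = 0.0912), called by DESeq2 (adjusted p = 0.0161). Without that embryo it was 2.17 and called by edgeR (adjusted p = 0.0026). Over the 12 embryos left out in turn it lay between 1.24 and 2.17 and was called in that 1 fit alone.

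No member fell in the test of the 12 embryos, and the 5 members with the most negative contributions were read at low to moderate levels. jg9742, the member next to the anchor jg9743, had 0 to 58 reads early and 0 to 19 reads late, and contributed −6.59% of the net difference. Its log2FC was −2.29 ± 1.24 (SE) (edgeR, adjusted p = 0.317). Over embryos left out it lay between −3.11 (without late male replicate 5) and −1.74 (without early male replicate 1). jg9636 stood at 11.8 to 96.8 CPM early and 4.74 to 27.3 CPM late, with a log2FC of −1.32 ± 0.58 (SE) (edgeR, adjusted p = 0.203). jg9654, jg9731 and jg9973 had log2FC of −1.06, −1.0 and −0.59, with adjusted p of 0.161, 0.318 and 0.864 in edgeR. The value of jg9973 was −1.62 without late female replicate 10 and −0.11 without early male replicate 2. The stages overlapped in all 5 genes. Outside these 5, jg9629 had the smallest p among members with a negative log2FC, and is added after its values were seen. It stood at 117 to 254 CPM early and at 81.1 to 182 CPM late, with overlap. Its log2FC was −0.79 ± 0.26 (SE) (edgeR, adjusted p = 0.0765). Of the embryos left out in turn, edgeR called it lower only without early male replicate 1 or late male replicate 2.

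Some members were read at one stage alone, mostly at a few reads. There were 14 members with no read in any early embryo and at least 1 late, and among them jg9667 was the only one read in all 6 late embryos. The next by reads were jg9690 with 81 reads, jg9687 with 54, both in 3 late embryos, and jg9694 with 35 reads in 2. In the other direction 4 members had reads early and none late. The highest of these was jg9969, with 110 reads spread over 4 early embryos and 76 of them in female replicate 9. These genes, picked here after their counts were seen, were present in only part of the embryos of their stage, unlike jg9667. The share of all genes with either pattern was not computed. Early libraries held 3591905 to 4820308 counts and late ones 2669131 to 7463397, so the 14 and the 4 were not read at equal depth.

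The flanks differed in how much they contributed. All 5 genes that rose lie in the lower flank, where 59 members were tested with a median log2FC of 0.47, and 0 of the 14 tested upper flank genes were called, with a median of 0.045. At an unadjusted p under 0.05, edgeR gave 1 upper flank gene higher and 1 lower, and DESeq2 called jg9979 alone. The level of the lower flank (61 genes) differed by 0.556 between the stages and that of the upper flank (14 genes) by −0.050. The upper flank is small, and whether the flanks differ was not tested. Along the gene numbers the called genes were not adjacent, with 3 or more tested genes between any pair of them and numbers from jg9662 to jg9728.

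**Figure D4:**
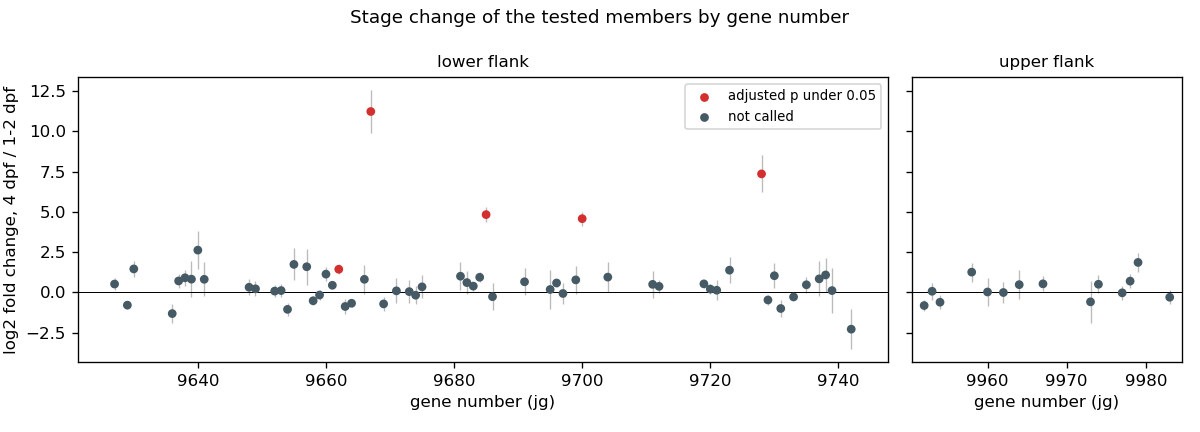
log2FC of 4 dpf over 1–2 dpf (vertical axis, bars ± SE) of the 73 tested members against gene number, lower flank left and upper flank right, with genes of an adjusted p under 0.05 in red. 4 of the 5 called genes lie at 4.57 or above and jg9662 lies at 1.43, within the range of uncalled genes, and the 14 upper flank genes hold no called gene.

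Within females alone, 4 of 73 tested members rose and 0 fell (edgeR), beside 1.17% of 8392 tested genes called higher and 0.608% called lower. They were jg9700 (log2FC 5.15 ± 0.70, SE), jg9685 (4.92 ± 0.81), jg9662 (2.02 ± 0.30) and jg9667, which had no early read. Members at an unadjusted p under 0.05 in edgeR numbered 14 higher and 2 lower, beside 6.91% and 7.39% of all genes, and DESeq2 called 9 higher and 0 lower, beside 4.73% and 2.69%. The median log2FC of the members was 0.58, beside 0.18 in all genes. The count was 1 without female replicate 7 or replicate 11 at 4 dpf, where jg9700 alone was called, 2 without female replicate 9 at 1–2 dpf or replicate 10 at 4 dpf, and 6 without female replicate 12 at 1–2 dpf, the library with few genes.

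Within males, 5 of 74 tested members rose and 0 fell (edgeR), beside 2.38% of 8772 tested genes called higher and 0.946% called lower. They were jg9685 (log2FC 4.75 ± 0.31, SE), jg9700 (4.11 ± 0.34), jg9630 (2.88 ± 0.42), and jg9728 and jg9667, which had no early read in males. At an unadjusted p under 0.05, edgeR gave 12 members higher and 2 lower, beside 9.66% and 7.02% of all genes, and DESeq2 called 6 higher and 1 lower, beside 6.08% and 3.48%. The median log2FC was 0.27, beside 0.0077 in all genes. The count was 2 without male replicate 2 at 1–2 dpf or replicate 5 at 4 dpf, and 3 without male replicate 1 at 1–2 dpf or replicate 8 at 4 dpf. The female and male lists shared 3 genes (jg9667, jg9685 and jg9700), 75% of the female list and 60% of the male list. jg9662 had a log2FC of 1.09 ± 0.26 (SE) in males (edgeR, adjusted p = 0.0658), called by DESeq2 (adjusted p = 0.0025), and jg9630 one of 0.58 ± 0.57 (SE) in females (edgeR, adjusted p = 0.732). The difference of these effects between the sexes was not called for either gene (edgeR interaction, 0.94 ± 0.39 (SE) with adjusted p = 0.872 for jg9662 and −2.29 ± 0.73 (SE) with adjusted p = 0.837 for jg9630).

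jg9730 entered the first 10 through females alone. It stood at 16.1, 6.59 and 0 CPM in early females and at 66.5, 70.1 and 68.3 CPM in early males. All late values lay between 53.2 and 93.6 CPM. Early females were thus below every other embryo, 1 of them being replicate 12, and the other 9 embryos shared 1 range. In females the log2FC was 3.53 ± 1.23 (SE) (edgeR, adjusted p = 0.242), called by DESeq2 (adjusted p = 0.0196). It was 2.92 and called by edgeR without replicate 12 (adjusted p = 0.0436). In males it was −0.01 ± 0.29 (SE) (edgeR, adjusted p = 0.993). The interaction was not called (3.55 ± 1.24 (SE), edgeR, adjusted p = 0.852).

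The comparison of females with males asks whether members with a single copy in females, if they lie in Z(diff), were read at a lower level there. At 1–2 dpf 0 of 68 tested members were called between the sexes by edgeR, beside 0% of all 8089 tested genes. At an unadjusted p under 0.05, edgeR gave 1 member higher and 4 lower in females, beside 3.37% and 2.68% of all genes, and DESeq2 called 0 members, with 0.235% of all genes called higher and 0.556% lower. The median log2FC of females over males was −0.21 in the members and −0.14 in all genes. Without overlap, 9 members were lower in females (13.2%, beside 9.98% of all genes) and 2 were higher (2.94%, beside 6.8%).

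The 3 members with the smallest p among those lower in females at 1–2 dpf were jg9662, jg9683 and jg9663. jg9683 stood at 503, 339 and 368 CPM in females and at 783, 896 and 745 CPM in males, without overlap (log2FC −0.98 ± 0.29 (SE), edgeR, adjusted p = 0.782). For jg9662 the log2FC was −1.24 ± 0.34 (SE) (edgeR, adjusted p = 0.782). jg9663 was at 69.1, 63.2 and 12.7 CPM in females and at 211, 152 and 114 CPM in males (log2FC −1.71 ± 0.62 (SE), edgeR, adjusted p = 0.782). In the other direction jg9630 was higher in the 3 females (log2FC 1.94 ± 0.69 (SE), edgeR, adjusted p = 0.782), and 1.13 without female replicate 9. jg9720 and jg9661 had log2FC of 0.92 and 0.75 with overlapping groups (edgeR, adjusted p = 0.787 and 0.808).

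At 4 dpf 0 of 77 tested members were called between the sexes by edgeR, beside 0% of 8979 genes. At an unadjusted p under 0.05, edgeR gave 5 members higher and 1 lower in females, beside 1.88% and 1.65% of all genes. DESeq2 called 1 member higher, jg9737 (adjusted p = 0.0165), and 0 lower, beside 0.178% and 0.111% of all genes. The median log2FC was −0.20 in the members and −0.012 in all genes. Without overlap, 6 members were lower in females (7.79%, beside 5.57% of all genes) and 4 were higher (5.19%, beside 5.32%). jg9636 stood at 5.21, 11.3 and 4.74 CPM in females and at 20.3, 27.3 and 20.1 CPM in males (log2FC −1.65 ± 0.59 (SE), edgeR, adjusted p = 0.999). jg9664 and jg9691 had log2FC of −0.57 and −1.63 (edgeR, adjusted p = 0.999 for both), and jg9699 one of 2.21 ± 0.75 (SE), with 87.0 CPM in female replicate 7 beside 7.16 to 26.3 CPM in the other 5 embryos, and of 1.03 without that embryo.

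The interaction of sex and stage asks whether the change between the stages differs between females and males, and 0 of 79 tested members were called (edgeR), beside 0% of 9833 genes. Before adjustment, edgeR gave 8 members higher and 1 lower at p under 0.05, beside 3.17% and 2.35% of all genes, and DESeq2 called 0 members, beside 0.234% and 0.112% of all genes. The smallest p belonged to jg9683. At 4 dpf it stood at 559, 1048 and 1126 CPM in females and at 727, 625 and 669 CPM in males. All late females were above all early females, and all late males were below all early males. The log2FC was 1.17 in females and −0.26 in males, with an interaction of 1.44 ± 0.41 (SE) (edgeR, adjusted p = 0.837). jg9737 (6.11 ± 1.82, SE) and jg9666 (4.85 ± 1.54, SE) followed (edgeR, adjusted p = 0.837 for both).

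jg9737, jg9738 and jg9739 varied widely among embryos of the same group, and jg9666 varied with them but also separated by group. At 4 dpf jg9737 and jg9738 were among the 3 members of smallest p higher in females. jg9738 then stood at 2.01, 22.8 and 16.4 CPM in females and at 2.67, 0.519 and 1.02 CPM in males. Its log2FC of females over males lay between 2.68 and 4.17 over the alternatives and was called in 0 of them. In both genes late female replicate 7 was below late male replicate 2. jg9666 stood at 0.791, 1.92 and 1.36 CPM in early females, below the 3.26, 12.7 and 10.9 CPM of early males. At 4 dpf it stood at 2.81, 17.6 and 24.1 CPM in females and at 5.77, 3.11 and 1.02 CPM in males. Its change in females was not called by edgeR (adjusted p = 0.256) and was called by DESeq2 (adjusted p = 0.0332). jg9739 had 0 reads in both 1 dpf embryos and in male replicates 5 and 8 at 4 dpf, and 5 reads in early female replicate 9. In the other 7 embryos, of both sexes and both stages, it had 107 to 402 reads, 21.5 to 86.5 CPM. The gene was thus read or nearly unread within 3 of the 4 groups of sex and stage, with 4 dpf females as the exception. jg9737 stood at 0.791, 1.65 and 12 CPM in early females, at 2.80, 39.7 and 27.2 CPM in early males, at 5.62, 52.6 and 82.9 CPM in late females and at 6.61, 1.90 and 1.02 CPM in late males. Its low early values were those of the same 3 embryos in which jg9739 was lowest, which include the 2 taken at 1 dpf. Over the 12 embryos its log2 level had a Pearson correlation of 0.96 with jg9738, 0.86 with jg9739 and 0.92 with jg9666, and of −0.90 with jg9653, which spanned 13.3 to 43.7 CPM. jg9737, jg9738 and jg9739 have adjoining numbers, and reads that neighbouring gene models share could not be told apart here. jg9739 and jg9653 were picked after their values were seen, and these correlations are descriptions.

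**Figure D5:**
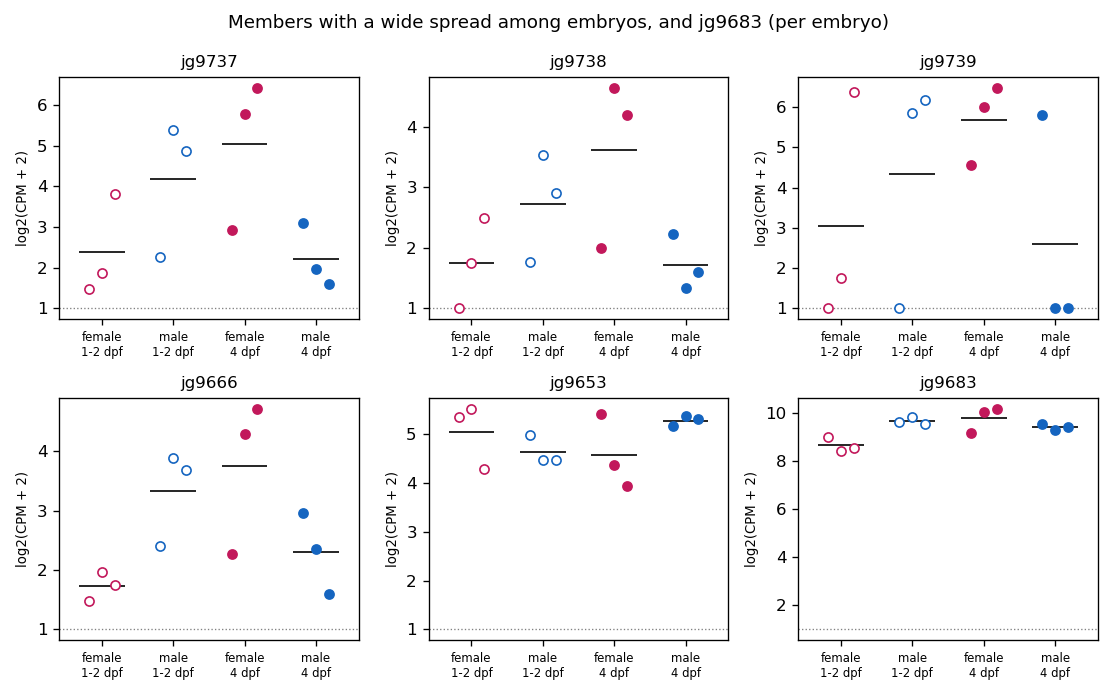
log2(CPM + 2) of jg9737, jg9738, jg9739, jg9666, jg9653 and jg9683 by sex and stage (points, 3 embryos per group; open points 1–2 dpf, filled points 4 dpf; lines, group means; dotted line, no read). jg9739 splits into embryos at or near no read and embryos between 21.5 and 86.5 CPM inside the groups, while jg9683 separates females from males at 1–2 dpf.

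The members nearest the anchors were read little. Beside jg9742, described above, jg9950 had 0 reads in early females, 1, 2 and 5 in early males, 12, 15 and 17 in late females and 0, 3 and 0 in late males. It lies at or under the floor in 8 of the 12 embryos. It did not pass the filter of the stage comparison, and its interaction was not called (edgeR, adjusted p = 0.837).

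In the adults, with 1 sample of each sex and no test, the members took 0.404% (female) and 0.702% (male) of the counts, below every embryo. There were 51 members above 3 reads in the female and 43 in the male, 36 of them in both. Of the 52 members read in every embryo, 12 had no read in either adult. The adult libraries had reads for 7399 (female) and 7064 (male) genes, fewer than every embryo except female replicate 12 at 1–2 dpf. Shares over all genes were not computed for these counts, so they cannot be read as particular to the members. jg9700, which rose at 4 dpf, had no read in either adult, jg9667 had none, and jg9685 had 30 reads in the female and none in the male, while jg9728 stood at 33.5 and 33.7 CPM. jg9662 was at 110.4 CPM in the female and 105 CPM in the male, below all embryos.

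Higher in both adults than in every embryo were 6 members, namely jg9640, jg9665, jg9668, jg9670, jg9719 and jg9968. All but jg9640 were named after their values were seen. The share of all genes with this pattern was not computed. Adult CPM use plain totals, while embryo CPM are scaled by TMM. jg9640 stood at 370.3 CPM in the female and 374 CPM in the male, where the highest embryo had 22.2 CPM. jg9665 stood at 183 CPM (female) and 398 CPM (male), where the highest embryo had 19.3 CPM, a log2 ratio of female to male (pseudocount of 1 CPM) of −1.12 with a 95% interval of −1.28 to −0.96 (exact binomial, counting error only). For jg9640 this ratio was −0.01 (−0.15 to 0.12). Sequencing reads were not collapsed to molecules, so PCR copies count separately and these intervals can be too narrow even for counting error. With 1 adult of each sex they do not cover differences between animals.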

How the data were processed

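Raw read counts per gene of 12 single embryos and 2 adults were used as the authors deposited them. Per the study's methods, the Cogent pipeline (version 2.0.1) trimmed, mapped and counted all reads without collapsing them by molecular identifier, so PCR copies count separately and depth covers counting error only. Columns were assigned to samples by barcode. Aligner and annotation versions are not given in the sources used here.

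Tests were fitted on the whole table in R 4.3.3 with edgeR 4.0.16: genes kept by filterByExpr, TMM scaling, quasi-likelihood F test, Benjamini-Hochberg adjustment over all tested genes, threshold 0.05. Standard errors are the absolute log2FC divided by the square root of F. DESeq2 1.42.0 was the alternative, and the other alternatives were scaling by RLE or by upper quartile, a mean count of 10 or no filter, sex as a covariate, 2 dpf embryos only and leaving out each embryo in turn. CPM use library totals scaled by TMM over the embryos, or plain totals in adults. The level uses log2 CPM with a prior count of 2 and autosomal genes numbered below 8000 or from 10027, and the PAR range is jg8968 to jg9331. Fitting was tested on simulated data. Plots were made with matplotlib 3.10.9 (Python 3.11.15).

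Named genes are those called between the stages, the 10 highest and 5 lowest contributors to the level, the 3 smallest p-values in each direction between the sexes and in the interaction, the 5 members with the highest mean CPM, and those next to the anchors. Members and lists were chosen with earlier results of these data known. Chromatin, imaging and lifespan data are not used here.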

Additional observations from a re-analysis of the deposited data

Results flagged for a closer look

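The highest or lowest embryo was compared with the rest in 60 sets of 6 embryos. These sets cover each stage of the 29 named genes and of the member level. An embryo stood apart in 7 sets. The cut-off flags about 1 in 20 sets of normally distributed values. CPM with zeros are not of that kind and the genes were picked from these data, so no chance rate is given. At 4 dpf, jg9700 was at 594.8 CPM in female replicate 11, with the next embryo at 416.5 CPM. At 4 dpf, jg9699 was at 87.0 CPM in female replicate 7, with the next at 26.3 CPM. At 1–2 dpf, female replicate 9 stood apart in 3 genes, jg9728 (1.65 CPM, the others at 0), jg9657 (10.4 CPM, the next at 3.50 CPM) and jg9630 (99.2 CPM, the next at 30.3 CPM). At the same stage jg9640 was at 6.86 CPM in male replicate 2, with the next at 2.47 CPM, and jg9636 was at 96.8 CPM in male replicate 1, with the next at 37.1 CPM.

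jg9683 moved in opposite directions in the sexes, with a log2FC of 1.17 from 1–2 to 4 dpf in females and of −0.26 in males. The late embryos were above the early ones in 3 of 3 females and below in 3 of 3 males. The interaction of 1.44 did not pass the threshold (edgeR, adjusted p = 0.837), and over the embryos left out in turn its adjusted p lay between 0.157 and 1.00.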

How the results depend on the processing

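The 5 genes called between the stages were called again with each of the 12 embryos left out in turn. Over these, the count of members higher ranged from 5 to 6 and that of members lower from 0 to 1, the latter being jg9629 without male replicate 1 at 1–2 dpf or male replicate 2 at 4 dpf. DESeq2 called 9 members higher between the stages (8.06% of all genes), 9 in females (4.73%) and 1 lower in males (jg9663, 3.48%), and 1 higher in females at 4 dpf (jg9737). Without a filter on low counts 1 member was called lower (jg9969), and with embryos of 2 dpf only 1 was (jg9629). In the upper flank alone 0 were called higher. In females the count higher ranged from 1 to 6 and lower from 0 to 1, and in males higher from 2 to 5 and lower from 0 to 0, over embryos left out. Counts between the sexes and in the interaction ranged from 0 to 0.

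The stage difference in level ranged from 0.345 (without female replicate 11 at 4 dpf) to 0.481 (without female replicate 7 at 4 dpf) over embryos left out, from 0.382 to 0.682 in females and from 0.278 to 0.354 in males. With a mean count of 100 or more it was 0.849 (0.944 in females, 0.755 in males), and with every member that had a read it was 0.397 in females. With the median over genes it was 0.245 (0.193 in females), and the stages overlapped. In the lower flank alone it was 0.719 in females. In the upper flank alone it was −0.050, with −0.169 in females and 0.068 in males, so its direction reversed over both sexes and in females. The cause was not tested.

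No paired analysis was possible because the groups compared share fewer than 2 replicate numbers, and these number libraries. Depth limits what can be said of 38 members, which had no read or at most 3 reads in any embryo.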
